A study of Mus musculus with 32 samples.

Results

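The cytoplasmic polyadenylation element binding (CPEB) genes Cpeb1, Cpeb2, Cpeb3 and Cpeb4 and the Pumilio gene Pum2 were followed in the soma and the dendrites of single mouse hippocampal neurons. These 5 genes were taken by name from a table of 44081 genes, and their 3′ ends by the same names from a table of 74532 features, where they held 23. All 5 genes and 8 of the 23 features passed the filter on low counts (a read in 16 or more of the 32 libraries), as did 10880 genes and 10652 features in all. The name CPEB fits only 4 of the 5 genes, because Pum2 encodes an RNA binding protein of a separate family.

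CPEB proteins bind a U-rich element in the 3′UTR of an mRNA, the cytoplasmic polyadenylation element (CPE). They hold the mRNA with a short poly(A) tail and poorly translated, and on a signal such as synaptic stimulation they allow the tail to be lengthened and the mRNA to be translated, which can take place in dendrites far from the nucleus. Pumilio proteins bind a UGUA element in 3′UTRs and repress the mRNA by recruiting factors such as the CCR4-NOT deadenylase. Cpeb1 is the founding member and the one that binds the canonical CPE, Cpeb2, Cpeb3 and Cpeb4 are closer to each other in sequence than to Cpeb1, Cpeb3 is known for a role in the maintenance of memory, and Pum2 is known in neurons for limiting dendrite growth and the translation of sodium channel mRNA.

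The cells were primary neurons of the C57BL/6 strain, prepared from the hippocampus at embryonic day 18 and kept in culture for 15 days. The labels name no genetic change or treatment in either group. From each of 16 neurons the dendrites were cut off and drawn up with a micropipette, separately from the soma, so that the groups are 16 dendrite and 16 soma libraries paired by neuron. The study thus asks which RNAs differ between both compartments of the same cell. RNA with a poly(A) tail was copied by aRNA amplification, a linear procedure through in vitro transcription, in 3 rounds for neurons 1 to 4 and in 2 rounds for the other 12, and the labels give a spike-in dilution of 0 for neurons 1 and 2. Each library is 1 compartment of 1 cell, and the labels do not say which neurons came from the same culture, so the p-values measure the spread between these cells.

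The 3′ ends of the genes themselves were searched for the kind of element that CPEB proteins bind. The search was made on the transcript strand over the last 500 nt of the longest coding transcript in GENCODE M21 (build GRCm38), with T written for U and overlapping matches counted. The CPE was searched as TTTTAT and as TTTTAAT, the Pumilio element as TGTANATA, and the poly(A) signal as AATAAA. Of 14053 genes with a full window, 39.8% held TTTTAT, 47.9% TTTTAT or TTTTAAT, 13.7% TGTANATA and 74.4% AATAAA. Cpeb2 held 8 TTTTAT, and no other gene reached that number (1 of 14053 genes, 0.00712%). Cpeb4 held 4, a number reached by 1.12% of genes, Cpeb3 held 2, reached by 13.7%, and Cpeb1 held 1 together with 2 TTTTAAT. The 1 TTTTAT of Cpeb1 is a number that 39.8% of genes reach. Pum2 held neither form in this window, and none of the 5 held TGTANATA there. Over the whole annotated 3′UTR, Pum2 held 5 TTTTAT, 3 TTTTAAT and 2 TGTANATA, and Cpeb1, Cpeb2 and Cpeb3 held 1 TGTANATA each. A match is a string of letters, and binding was not measured. The CPE nearest to the annotated 3′ end is shown in capitals in its 30-base surroundings for the 4 CPEB genes:
Cpeb1, chr7:81347256-81347285, minus strand: ttgacttttctTTTTAATttaacgattact
Cpeb2, chr5:43289554-43289583, plus strand: taatttagtttaTTTTATtgttatcttcca
Cpeb3, chr19:37021506-37021535, minus strand: ggaataaattaaTTTTATgatgctaattct
Cpeb4, chr11:31935406-31935435, plus strand: gggtaattcattTTTTATtaaagtcatttt
These 4 elements ended 242, 153, 227 and 211 nt before the annotated 3′ end. A stretch of the Cpeb2 3′UTR shows how densely the element recurs there, with 2 copies within 30 bases:
Cpeb2, chr5:43289225-43289254, plus strand: tatTTTTATgtgaaaatatataaTTTTATg
The last poly(A) hexamer, the signal for cleavage and tail addition, is shown in capitals for Pum2, which has no CPE in the window:
Pum2, chr12:8752515-8752544, plus strand: aacattgtatgaAATAAAcctggtcttgtg
The last hexamer ended 17 nt (Cpeb2), 22 nt (Cpeb3), 13 nt (Cpeb4) and 29 nt (Pum2) before the annotated end, so these 4 transcripts carried it within 29 nt of the end. The genes lie at chr7:81347026-81455465 on the minus strand (Cpeb1, ENSMUSG00000025586.17), chr5:43233170-43289724 on the plus strand (Cpeb2, ENSMUSG00000039782.14), chr19:37021291-37208601 on the minus strand (Cpeb3, ENSMUSG00000039652.16), chr11:31872211-31935634 on the plus strand (Cpeb4, ENSMUSG00000020300.14) and chr12:8674134-8752581 on the plus strand (Pum2, ENSMUSG00000020594.14).

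**Figure D1:**
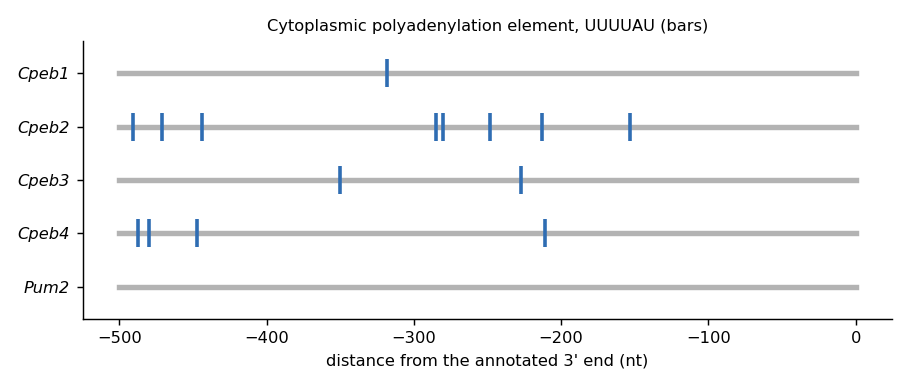
Position of the cytoplasmic polyadenylation element UUUUAU (blue bars) over the last 500 nt of the longest coding transcript of each gene, with the distance from the annotated 3′ end in nt on the x axis and the form UUUUAAU not drawn. Cpeb2 has 8 bars, Cpeb4 has 4, Cpeb3 has 2, Cpeb1 has 1 and Pum2 has none.

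Dendrite libraries held 646521 to 6954420 reads on 3′UTRs and 1570 to 9871 genes with at least 10 reads. Soma libraries held 925525 to 21169974 such reads and 6041 to 12185 such genes. Mitochondrial genes took 2.39% to 35.8% of the 3′UTR reads in dendrites (median 13.5%) and 0.277% to 8.12% in somas (median 1.05%). The dendrites of neurons 15 and 16 stood apart, with 1570 and 2485 genes at 10 reads and 35.8% and 32.4% mitochondrial reads. The edgeR tests of the 5 genes and their features were therefore also run without these 2 neurons, an alternative chosen after the data were seen. The listed genes, the shares of 3′ ends and the permutation tests were not examined in that way. Levels are given as CPM, reads scaled to a common library size with TMM factors, so they are relative to the library and do not measure the amount of RNA in a compartment. The summed level of 6 neuron markers was 3047 to 13430 CPM in dendrites and 3353 to 12033 CPM in somas. The 3 inhibitory neuron markers Gad1, Gad2 and Slc32a1 summed to a median of 4033 CPM in dendrites and 9639 CPM in somas, and the 4 pyramidal cell markers Neurod6, Camk2a, Slc17a7 and Grin1 to 202.8 and 105.5 CPM. Astrocyte markers summed to 0 to 663 CPM in dendrites and 0 to 146 CPM in somas (medians 33.1 and 13.1), microglia markers to 0 to 386 and 0 to 17.5 CPM (medians 5.16 and 0.199), oligodendrocyte markers to 0 to 173 and 0.0913 to 134 CPM (medians 14.8 and 6.09) and endothelial markers to 0 to 135 and 0 to 129 CPM (medians 2.11 and 0.242), with Cldn5 at 0 in all libraries. The part of these marker levels in the results was not tested. Because dendrites had lower depth, the gene test and the detection counts were also run with equal read numbers within each neuron. This evens the read number only and does not bring back RNA missed before sequencing.

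RNA of all 5 genes was found in dendrites, of Cpeb1 least often. At least 1 read of Cpeb1 was present in 8 of 16 dendrites and 16 of 16 somas, of Cpeb2 in 15 and 15, of Cpeb3 in 14 and 16, of Cpeb4 in 13 and 15, and of Pum2 in 15 and 16. Cpeb2 and Pum2 thus reached at least 15 dendrites, as did 17.1% of the genes tested, all 5 genes reached at least 15 somas, as did 57.6%, and Cpeb1, Cpeb3 and Pum2 reached all 16 somas, as did 40.7%. With at least 10 reads required, Cpeb1 remained in 2 dendrites and 14 somas, while the other 4 genes remained in 11 to 13 dendrites and 13 to 16 somas. All 5 genes had reads together in 6 dendrites and 15 somas. The dendrites of neurons 10, 15 and 16 had at least 10 reads of only 1 of the 5 genes, Cpeb4, Cpeb2 and Cpeb3 respectively, and the dendrites of neuron 15 had no read of the other 4. Those of neurons 15 and 16 were poor in genes of all kinds. The summed level of the 5 genes ranged from 14.5 to 1004 CPM in dendrites (median 333) and from 379 to 881 CPM in somas (median 493). Pum2 was the leading gene of the 5 in 8 dendrites and 9 somas, and Cpeb1 in none.

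Cpeb1 was higher in the soma than in the dendrites. Dendrites had 0 to 70 reads (median 0.5) and somas 3 to 852 (median 191). In CPM the dendrites held 0 to 88.3 (median 0.290) and the somas 0.272 to 96.2 (median 41.9). The groups overlapped, because the dendrites of neurons 1 and 5 stood at 88.3 and 54.1 CPM, above the median soma, and 8 of the dendrites lay above the lowest soma. Within neurons the soma was higher in 15 of 16, with neuron 5 as the exception. The other 14 dendrites had at most 6 reads. The fitted log2 fold change, dendrite over soma, was -5.10 ± 1.28 (SE, n = 16 neurons, edgeR quasi-likelihood test with neuron as a block, Benjamini-Hochberg adjusted p = 0.0172). The means over libraries were closer. They were 9.71 ± 24.8 CPM for dendrites and 38.0 ± 30.6 CPM for somas (SD, n = 16 each). Cpeb1 was the only one of the 5 genes called, against 5.71% of the genes tested called on the soma side (621 of 10880) and 0.827% on the dendrite side (90). It was also the only one of the 5 at an unadjusted p under 0.05, where edgeR placed 26.7% of genes on the soma side and 3.55% on the dendrite side. With dendrites rescaled to a median change of 0, edgeR called 92 genes of the whole set on the soma side and 548 on the dendrite side.

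Most genes were lower in dendrites on this scale, and the values of the members have to be read against that. Over all genes tested, the log2 fold change had a median of -1.49, and 78.8% of genes were below 0, as were all 5 members. Relative to the median gene Cpeb1 stood at -3.61 on the log2 scale, and 3.74% of genes had a lower fold change. Exact permutation of signs over the 16 pairs, on log2(CPM + 1), gave Cpeb1 a mean difference of -3.07 ± 2.07 (SD, n = 16, two-sided, adjusted p = 0.00697 over all genes tested), where 19.7% of genes were called higher in somas. With equal read numbers within each neuron the fold change was -4.36 ± 1.25 (SE, edgeR adjusted p = 0.0354). The call was lost when dendrites were rescaled to the median gene (-3.79, edgeR adjusted p = 0.0726), without a filter (-5.24, adjusted p = 0.0592), without the block for neuron (-1.98, adjusted p = 0.386) and in the 4 neurons of 3 rounds alone (-3.98, adjusted p = 0.858). It was also lost without neurons 15 and 16, whose dendrites had 0 and 1 read of Cpeb1 (-4.48 ± 1.28, SE, n = 14, edgeR adjusted p = 0.0601). Without these 2 neurons edgeR called 101 genes of the whole set on the soma side and 68 on the dendrite side, and the median gene stood at -1.01.

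**Figure D2:**
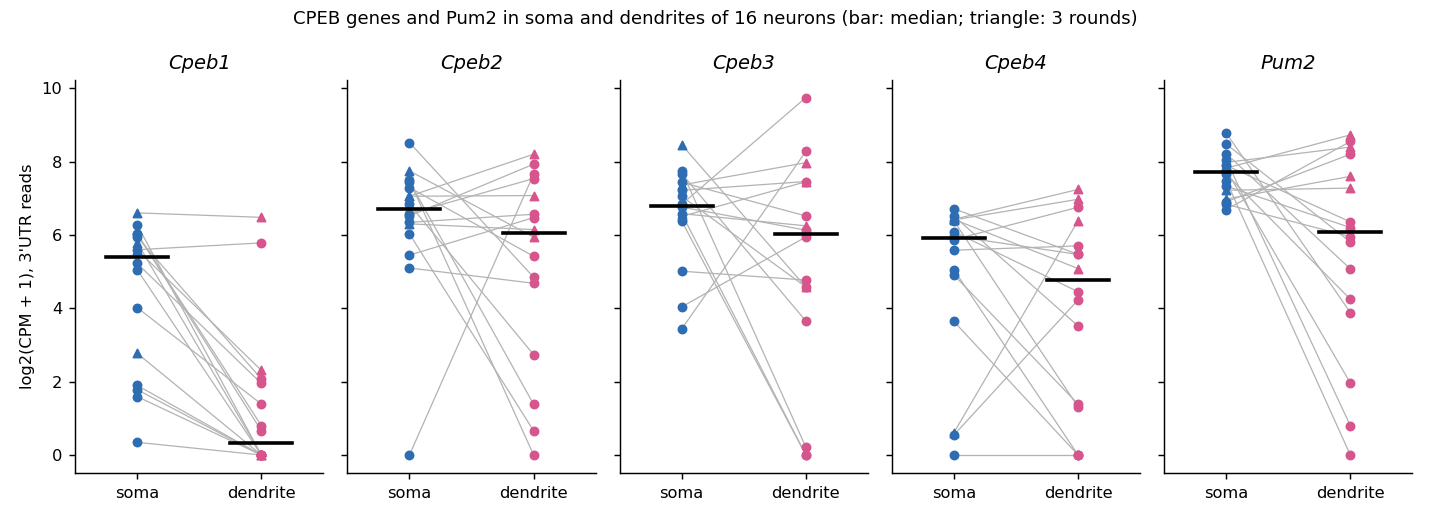
Level of each gene in the soma (blue) and the dendrites (pink) of 16 neurons as log2(CPM + 1) of 3′UTR reads, with a grey line joining the compartments of a neuron, a black bar at the median, and triangles for the 4 neurons of 3 rounds and circles for the 12 of 2 rounds. Cpeb1 falls to at most 6 reads in 14 of 16 dendrites, while dendrites of the other 4 genes range from 0 to above the median soma.

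Cpeb2, Cpeb3 and Cpeb4, the group of closely related CPEB genes, did not pass the test. Of Cpeb2, dendrites had 0 to 1526 reads (median 63.5) and somas 0 to 3380 (median 619), with levels of 0 to 293 CPM (median 65.2) and 0 to 366 CPM (median 104). Its soma was higher in 9 neurons and its dendrites in 7, and in neuron 12 the soma had no read while the dendrites had 201 CPM. The log2 fold change was -1.09 ± 1.07 (SE, n = 16, edgeR adjusted p = 0.471). Of Cpeb3, dendrites had 0 to 1156 reads (median 66.0) and somas 18 to 4658 (median 754.5), with levels of 0 to 857 CPM (median 64.9) and 9.83 to 351 CPM (median 110). The dendrites of neuron 16 held the highest Cpeb3 level of all libraries, above every soma, on 1156 reads. Of that library, however, only 2 reads lay on any of the 7 Cpeb3 features and 4 on exons. The dendrites of neurons 10 and 15 held no Cpeb3 read, so the groups overlapped. The log2 fold change of Cpeb3 was -1.08 ± 1.07 (SE, n = 16, edgeR adjusted p = 0.474). Of Cpeb4, dendrites had 0 to 321 reads (median 24) and somas 0 to 1199 (median 342), with levels of 0 to 150 CPM (median 26.9) and 0 to 104 CPM (median 59.7). In 9 neurons the soma was higher, in 6 the dendrites, and in neuron 12 neither compartment had a read, while the dendrites of neurons 3, 4 and 7 lay above the highest soma. The highest of them, neuron 3 with 184 reads, had 0 reads on both Cpeb4 features and 0 on exons, whereas neurons 4 and 7 had 161 of 161 and 108 of 112 reads on features. The log2 fold change of Cpeb4 was -1.16 ± 1.19 (SE, n = 16, edgeR adjusted p = 0.492). These 3 genes lay 0.33 to 0.41 above the median gene on the log2 scale, and after rescaling to that gene their fold changes were 0.40, 0.41 and 0.31, of the opposite sign (edgeR adjusted p of 0.887 to 0.924). On the feature with most reads of each gene alone, Cpeb2 stood at -2.19, Cpeb3 at -1.75 and Cpeb4 at -3.83. The median over all features tested was -2.14, so Cpeb4 lay below it there.

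Pum2, the Pumilio gene, had the highest median and summed 3′UTR read number of the 5 in somas, although the single highest soma count was of Cpeb3. Dendrites had 0 to 1854 Pum2 reads (median 89.5) and somas 150 to 4382 (median 1367.5), with levels of 0 to 423 CPM (median 66.9) and 102 to 438 CPM (median 209.8). No dendrite lay above the highest soma and 10 of 16 lay below the lowest, so the dendrites spread from 0 into the range of the somas. The log2 fold change was -1.81 ± 0.93 (SE, n = 16, unadjusted p = 0.0582, edgeR adjusted p = 0.178), and 43.1% of genes had a lower one. DESeq2 with the same pairing gave -1.99 ± 0.63 (SE) and an adjusted p of 0.00519, where it called 46.2% of all genes higher in somas, and the exact sign-flip permutation test gave a mean difference of -2.07 ± 3.03 (SD, n = 16, adjusted p = 0.0580). DESeq2 called Cpeb1 too (-4.91 ± 0.76, SE, adjusted p = 6.36e-09), and gave Cpeb2, Cpeb3 and Cpeb4 adjusted p of 0.112, 0.105 and 0.0803.

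The neurons of 2 and of 3 rounds of amplification were also compared, and no gene passed the test of that difference. Among the 12 neurons of 2 rounds the Pum2 median was 43.9 CPM in dendrites and 209.8 CPM in somas, with the soma higher in 10. Among the 4 neurons of 3 rounds it was 264 CPM in dendrites and 187 CPM in somas, with the dendrites higher in all 4. The log2 fold change was -2.96 in the former (edgeR adjusted p = 0.128) and 0.63 in the latter (adjusted p = 0.936). Cpeb4 showed medians of 14.1 and 52.3 CPM in 2 rounds and of 104 and 84.5 CPM in 3 rounds, with the soma higher in 8 of 12 and 1 of 4, and log2 fold changes of -2.16 and 1.23. The difference between both sets of neurons was tested as an interaction. It was 3.46 ± 1.81 on the log2 scale for Pum2 (SE, unadjusted p = 0.0620, edgeR adjusted p = 1) and 3.24 ± 2.53 for Cpeb4 (SE, unadjusted p = 0.207, adjusted p = 1), and no gene passed (0 of 10880, with 288 at an unadjusted p under 0.05). The interaction was 0.92 ± 2.56 for Cpeb1, whose soma was higher in 11 of 12 and 4 of 4 neurons. For Cpeb2 and Cpeb3 it was 1.49 ± 2.23 and 0.97 ± 2.30. Rounds cannot be told apart from other ways in which neurons 1 to 4 differed, such as the spike-in dilution of 0 in neurons 1 and 2.

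**Figure D3:**
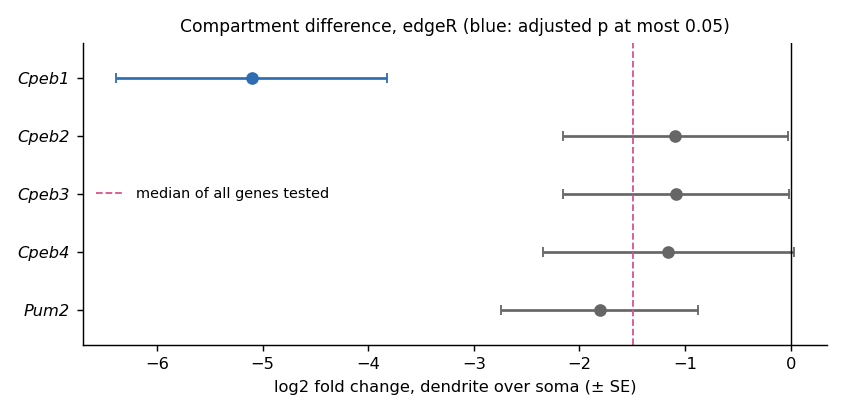
Log2 fold change, dendrite over soma, of each gene from edgeR with neuron as a block (point, with bars of 1 SE) over 16 neurons, with the median of all 10880 genes tested as a dashed line and 0 as a black line. Cpeb1 (blue, adjusted p = 0.0172) stands at -5.10, and the other 4 genes, at -1.81 to -1.08, lie within 1 SE of the median gene.

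Whether Cpeb1 differed from the other members was tested within neurons, a comparison added after the values were seen. The compartment difference of Cpeb1 in log2(CPM + 1), minus that of Cpeb4, was -2.25 ± 2.62 (SD, Cpeb1 lower in 13 of 16 neurons, exact permutation by two-sided sign flips, p = 0.00452, adjusted p = 0.0181 over the 4 comparisons). Minus that of Cpeb2 it was -1.91 ± 3.35 (lower in 11 of 16, permutation p = 0.0348, adjusted p = 0.0696), minus that of Cpeb3 -1.72 ± 3.46 (10 of 16, permutation p = 0.0655, adjusted p = 0.0874) and minus that of Pum2 -1.0 ± 2.67 (9 of 16, permutation p = 0.154, adjusted p = 0.154). A difference was thus found against Cpeb4 on 3′UTR reads, and the comparisons with the others did not pass after adjustment. Of the Cpeb4 reads in dendrites, however, 43.5% lay on none of its features. The dendrites of neurons 3, 8 and 11 had 184, 81 and 215 Cpeb4 reads, with 0, 1 and 1 on features and 0 on exons. The comparison was not run without these reads.

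The dendritic share of a gene's level, the dendrite CPM over the sum of both compartments, was also compared with other genes. In neurons with at least 10 reads of the gene, its median was 0.0102 for Cpeb1, 0.449 for Cpeb2, 0.417 for Cpeb3, 0.294 for Cpeb4 and 0.283 for Pum2. Over the 10471 genes with such a value in at least 5 neurons the median was 0.264, so Cpeb1 lay above 12.4% of genes, Pum2 above 52.6%, Cpeb4 above 54.3%, Cpeb3 above 70.2% and Cpeb2 above 74.0%. The share of Cpeb1 was under 0.1 in 12 of 14 neurons. The shares of the other 4 genes ran from 0 to between 0.785 (Pum2) and 1 (Cpeb2), and were over 0.5 in 6 or 7 neurons each. The variance of the share between neurons was 0.0316 for Cpeb1, with 5.58% of genes lower, and 0.0792 to 0.113 for the others, against a median of 0.106 over all genes. A share held near 0 has little room to vary, so the low variance of Cpeb1 is not separate from its low share.

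Levels of different genes were set side by side on their leading 3′ end, the feature with most reads. It covers the last 500 nt of a 3′ end and is longer where close ends were merged. Feature lengths were not used here, so the levels are not adjusted for length. The part of length in the differences between genes was not tested. In somas the medians were 277 CPM for Pum2, 131 for Cpeb3, 124 for Cpeb2, 66.1 for Cpeb4 and 43.8 for Cpeb1. Of the neighbours in this order, Pum2 exceeded Cpeb3 by 1.5 ± 1.77 (log2, SD, 13 of 16 somas, exact sign-flip permutation test, p = 0.000732, adjusted p = 0.00586 over 8 comparisons) and Cpeb2 exceeded Cpeb4 by 1.40 ± 2.05 (11 of 16, permutation p = 0.00537, adjusted p = 0.0215). Cpeb3 and Cpeb2 (0.04 ± 1.75) and Cpeb4 and Cpeb1 (0.51 ± 3.16) did not differ beyond their spread (adjusted p of 0.923 and 0.705 by the same permutation test). In dendrites the medians were 92.7 CPM for Pum2, 59.7 for Cpeb2, 39.4 for Cpeb3, 1.77 for Cpeb4 and 0 for Cpeb1. No comparison of neighbours passed there after adjustment, Cpeb4 and Cpeb1 being nearest to it (1.54 ± 2.88, permutation p = 0.0493, adjusted p = 0.132). These 8 comparisons were added after the values were seen.

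The share of a gene's 3′UTR reads that lay on any of its features was 85.7% to 99.2% in both compartments for Cpeb1, Cpeb2 and Pum2. It was 92.1% in somas and 62.8% in dendrites for Cpeb3, and 85.3% and 56.5% for Cpeb4, so that 37.2% and 43.5% of their dendrite reads lay outside the features. Nearly all such Cpeb3 reads came from the dendrites of neuron 16, with 1156 of 3138 reads and 2 on features. Most such Cpeb4 reads came from neurons 3, 8 and 11, with 184, 81 and 215 reads and 0, 1 and 1 on features. The leading feature held 49.3% of all Cpeb3 reads and 56.5% of all Cpeb4 reads in dendrites. The Cpeb3 value counts the 1156 reads of neuron 16, of which 0 lay on the leading feature, and is therefore lowered by that library. Of the reads on features alone, it held 99.7% of the soma reads and 98% of the dendrite reads of Cpeb1 features, 83.3% and 66.5% of Cpeb2, 73.5% and 78.5% of Cpeb3, 99.9% and 100.0% of Cpeb4, and 94.8% and 92.2% of Pum2. Of the 23 features, 8 passed the filter, 1 (of Cpeb1) had no read in any library, and the other 14 had reads in at most 6 dendrites and 9 somas. The leading end of Cpeb1 (Cpeb1_utr1), with 0 to 69 reads in dendrites (median 0) and up to 706 in somas (median 125.5), was called higher in somas (log2 fold change -5.95 ± 1.41, SE, n = 16, edgeR adjusted p = 0.00878). It had reads in 6 dendrites and 16 somas. It was the only one of the 8 features called, against 16.9% of all features called on the soma side and 0.723% on the dendrite side, and against a median log2 fold change of -2.14 over features. Without neurons 15 and 16 it was still called (-5.06 ± 1.40, SE, n = 14, edgeR adjusted p = 0.0419), when 305 features in all were called on the soma side. The leading ends of Cpeb2, Cpeb3, Cpeb4 and Pum2 had log2 fold changes of -2.19, -1.75, -3.83 and -2.35 (SE 1.28, 1.29, 1.69 and 1.20, edgeR adjusted p of 0.189, 0.290, 0.0920 and 0.139). Further ends were tested for Cpeb3 and Pum2. The Cpeb3 end numbered 3 stood at -1.92 ± 1.53 (SE, adjusted p = 0.331). The Pum2 end numbered 2, with reads in 4 dendrites and 14 somas, stood at -3.67 ± 1.43 (SE, adjusted p = 0.0632), and the Pum2 end numbered 3, with reads in 12 and 14, at -0.21 ± 0.98 (SE, adjusted p = 0.871). DESeq2 called the 5 leading ends and the Pum2 end numbered 2 on the soma side, where it called 60.2% of all features, with 2.09% on the dendrite side.

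The share of reads on the leading end was compared between compartments, which asks whether a compartment prefers a 3′ end. The positions of the ends were not used here, so proximal and distal ends are not named. For Pum2, in 12 neurons with at least 10 reads on its top 2 ends in both compartments, the leading end held 82.1% ± 30.8 of them in dendrites and 96.7% ± 5.32 in somas (SD, n = 12, exact signed-rank test, two-sided, p = 0.791). All 12 somas lay at 80.4% or above, whereas the dendrites of neurons 12, 14 and 9 stood at 4.55%, 39.3% and 63.1% on 22, 61 and 111 reads. The dendrites were higher in 7 neurons and the soma in 5. For Cpeb2 the leading end held 84.5% ± 24.1 in dendrites and 88.5% ± 16.4 in somas (SD, n = 9, exact signed-rank p = 0.945). The second Cpeb2 end took most reads in the dendrites of neuron 4 (leading share 42.2%) and the soma of neuron 15 (48.5%), on 377 and 3221 reads. For Cpeb3 it held 88.0% ± 19.4 in dendrites and 91.0% ± 12.9 in somas (SD, n = 12, exact signed-rank p = 1), lowest in the dendrites of neuron 6 at 36.8%. For Cpeb4 it held 100.0% in both compartments of all 5 neurons with enough reads. The second Cpeb4 end had reads only in the soma of neuron 13 (7 reads), which was not among these 5, so the Cpeb4 share could not differ. Cpeb1 had too few dendritic reads to be compared. Cpeb2, Cpeb3 and Pum2 did not pass, and 0 of 3519 genes in all passed after adjustment, with 296 (8.41%) at an unadjusted p under 0.1 and 159 under 0.05. With 9 or 12 neurons the exact test cannot reach very small p-values, so adjustment over 3519 genes left little room for a call.

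**Figure D4:**
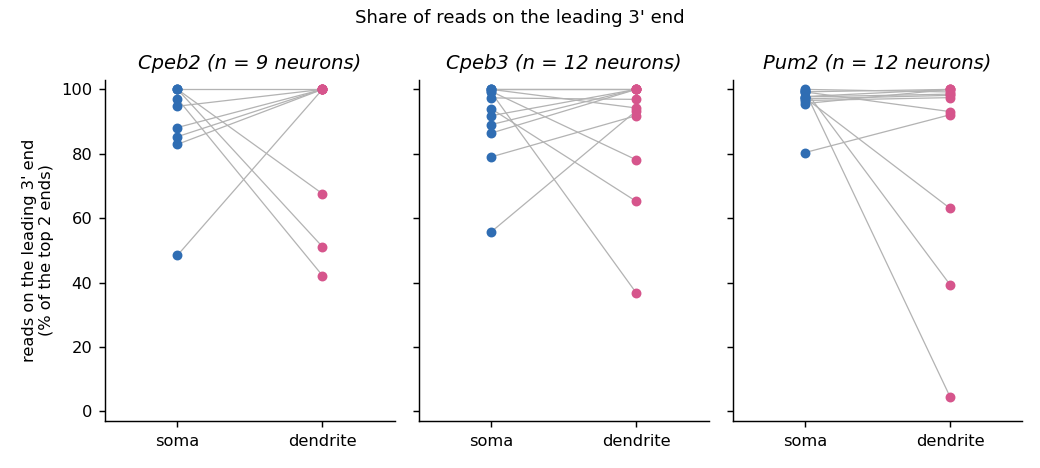
Share of reads on the leading 3′ end, in percent of the reads on the top 2 ends, in the soma (blue) and the dendrites (pink) of each neuron with at least 10 such reads in both, joined by a line, for Cpeb2 (9 neurons), Cpeb3 (12) and Pum2 (12). Pum2 somas lie at 80.4% or above, and 3 Pum2 dendrites fall to 63.1%, 39.3% and 4.55%.

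Reads counted on exons instead of 3′UTRs gave much the same numbers for Cpeb1, Cpeb2 and Pum2 (99.2% to 101% of the 3′UTR read number in each compartment). For Cpeb3 the exon number was 14.1% of the 3′UTR number in dendrites and 26.2% in somas, and for Cpeb4 2.85% and 0.365%, with reads in 4 dendrites and 4 somas. The exon tables therefore hold few reads of Cpeb4 for neurons in which its 3′UTR held up to 1199. On exons Cpeb1 had a log2 fold change of -4.74 ± 1.40 (SE, edgeR adjusted p = 0.0349), Cpeb2 of -0.89, Cpeb3 of -2.30 and Pum2 of -1.48 (adjusted p of 0.611, 0.308 and 0.308), and Cpeb4 fell below the filter.

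The levels of the 5 genes over the 32 libraries, after the mean of each compartment was removed, were most alike for Cpeb4 and Pum2 (Pearson r = 0.52, Spearman rho = 0.43, n = 32 libraries) and for Cpeb2 and Cpeb4 (r = 0.40, rho = 0.46), and between 0.12 and 0.29 in Pearson r for the other 8 pairs. These are descriptions over libraries that share neurons, depth and amplification. Among the 6815 genes with reads in at least 24 libraries, the most alike were Ulk3, Tmem169 and Ablim1 for Cpeb1 (r = 0.64, 0.62 and 0.61), Pi4ka, Snhg4 and Sumo3 for Cpeb2 (r = 0.83, 0.82 and 0.78) and Arhgap44, Fam171b and Mturn for Cpeb3 (r = 0.75, 0.71 and 0.71). For Cpeb4 they were Ccng1, Slc25a16 and Hipk1 (r = 0.85, 0.80 and 0.79), and for Pum2 Dlat, Blcap and Wdr7 (each r = 0.87). The top 5% of these genes began at r of 0.37 for Cpeb1, 0.49 for Cpeb2, 0.40 for Cpeb3, 0.53 for Cpeb4 and 0.61 for Pum2. Within compartments, Pum2 and Dlat were alike in dendrites (r = 0.90, n = 16) and had r near 0 in somas (r = -0.0049, n = 16), whereas Cpeb4 and Ccng1 were alike in both (0.93 and 0.74). Blcap and Wdr7 had r of 0.89 and 0.92 with Pum2 in dendrites and of 0.35 and 0.27 in somas. These genes were picked by correlation over the same libraries, so a high r within a compartment follows in part from the choice.

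The partners of these proteins were followed in lists chosen for their described roles, and their values are descriptions beside the same over all genes. Of 31 genes listed as CPEB partners or cytoplasmic polyadenylation machinery, 25 were tested. EdgeR called 0, against 5.71% of all genes on the soma side and 0.827% on the dendrite side. It placed 9 at an unadjusted p under 0.05, all on the soma side, where it placed 26.7% of all genes. DESeq2 called 16 higher in somas and 0 in dendrites, against 46.2% and 4.26% of all genes. Their median log2 fold change was -1.88, against -1.49 for all genes, and 24 of 25 were below 0, which became 17 of 25 with dendrites rescaled to the median gene. The lowest were Cpsf2 (-4.84 ± 1.57, SE, edgeR adjusted p = 0.0502) and Cpsf3 (-4.81 ± 1.67, adjusted p = 0.0651), both subunits of the cleavage and polyadenylation specificity factor, of which Cpsf3 is the nuclease. The highest were Neurl1b, a ubiquitin ligase (0.05, adjusted p = 0.996), and Papd7, a non-canonical poly(A) polymerase (-0.02, adjusted p = 0.994).

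Of 19 Pumilio relatives and partners, 16 were tested and 3 were called, all of them higher in somas, where 5.71% of all genes were called. All 3 are subunits of the CCR4-NOT complex, as are 11 of the 16 tested, so 8 subunits were not called. These were Rqcd1 (-6.28 ± 1.79, SE, edgeR adjusted p = 0.0298), Cnot11 (-4.61 ± 1.42, adjusted p = 0.0412) and the deadenylase Cnot6l (-3.71 ± 1.10, adjusted p = 0.0358). With dendrites rescaled to the median gene these 3 stood at -5.01, -3.21 and -2.26 and were no longer called (edgeR adjusted p of 0.0807, 0.183 and 0.262). The soma was higher in 12, 13 and 15 of the 16 neurons. The list had a median log2 fold change of -2.73, with 7 genes at an unadjusted p under 0.05, all on the soma side (26.7% of all genes), and 15 of 16 below 0 (11 of 16 after rescaling). DESeq2 called 11 of its genes higher in somas, against 46.2% of all genes, and 0 in dendrites. The highest genes of the list were Cnot4 (0.48, adjusted p = 0.815), a ubiquitin ligase of the same complex, and Trim2 (-0.73, adjusted p = 0.355).

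Of 23 mRNAs described as CPEB or Pumilio targets, 20 were tested, and 1 was called in each direction, against 0.827% of all genes on the dendrite side and 5.71% on the soma side. The dendritic one was Map2, the microtubule-associated protein of dendrites, also one of the neuron markers above (2.66 ± 0.49, SE, edgeR adjusted p = 0.00202), with medians of 2302 CPM in dendrites and 366 CPM in somas and the soma higher in only 2 of 16 neurons. The somatic one was the sodium channel gene Scn1a (-3.52 ± 1.14, SE, edgeR adjusted p = 0.0491), with medians of 18.1 and 126 CPM and the soma higher in 14 of 16 neurons. Scn1a was no longer called after rescaling (-2.05, adjusted p = 0.358), whereas Map2 was (4.15, adjusted p = 1.7e-09). The elongation factor gene Eef2 stood at 0.80 ± 0.50 (SE, edgeR adjusted p = 0.257), with the soma higher in only 1 of 16 neurons. EdgeR called it higher in dendrites only after rescaling (2.29, adjusted p = 0.00109), when 548 of 10880 genes in all were called on that side. The growth factor gene Bdnf stood highest (2.69 ± 1.37, SE, edgeR adjusted p = 0.173), and the transcription factor gene E2f3 was, after Scn1a, the lowest (-3.48 ± 1.59, SE, adjusted p = 0.136). The list had a median log2 fold change of -0.62, against -1.49 for all genes. Of the 20, 13 were below 0, as were 78.8% of all genes, and 5 were below 0 after rescaling. At an unadjusted edgeR p under 0.05 the list had 5 genes, Map2 on the dendrite side and the others on the soma side. EdgeR placed 3.55% and 26.7% of all genes there. DESeq2 called 2 of its genes on the dendrite side and 8 on the soma side, against 4.26% and 46.2% of all genes.

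**Figure D5:**
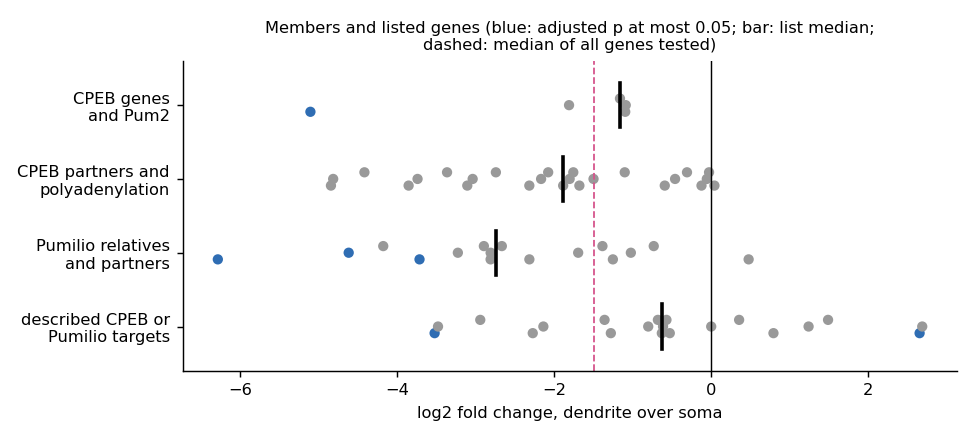
Log2 fold change, dendrite over soma, of the 5 genes and of the tested genes of the 3 lists (1 point a gene, with a vertical offset only to separate points), with blue points at an edgeR adjusted p of at most 0.05, black bars at the list medians and the dashed line at the median of all genes tested (-1.49). Cpeb1, 3 Pumilio partners and Scn1a lie to the left among the blue points, and Map2 to the right.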

How the data were processed

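After trimming, the authors mapped reads with STAR (2.4.0 in the submitters' processing notes) to mm10 and used VERSE to assign the reads with a single place in the genome. The deposited values are raw whole-number read counts, summed over all 3′UTR sequence of 44081 genes, over 74532 features (a 500-nt window at a 3′ end, windows of close ends joined) and over the exons of 23453 genes, where the options of the exon counting are not given in the sources used here. The libraries are stranded, and reads carry no molecular identifiers, so 1 read is not 1 molecule and errors come from the neurons, not from counting. Depth was 646521 to 6954420 reads on 3′UTRs in dendrites and 925525 to 21169974 in somas.

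From these counts, genes and features with reads in 16 or more of 32 libraries were compared between compartments with edgeR 4.0.16 in R 4.3.3 (TMM, quasi-likelihood test with robust fit, neuron as a block, Benjamini-Hochberg adjustment over all tested, threshold 0.05), with DESeq2 1.42.0 as an alternative. The SE is the fold change divided by the root of the F statistic. Other values used Python 3.11, NumPy 2.4.6, pandas 2.3.3, SciPy 1.17.1 and matplotlib 3.10.9, with exact sign-flip and signed-rank tests over neurons. CPM are reads scaled by the TMM-adjusted total of the tested genes, and 1 was added before logs. Motifs, coordinates and sequences came from GENCODE M21 (GRCm38, the build named mm10 by the authors), and 1 result on these sequences is not reported here.

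Both libraries of a number come from the same cell, which pairs them. The correlation of their deviations from the compartment means, over 10880 genes, averaged 0.0887 ± 0.0772 in the 16 matched pairs and -0.00559 ± 0.0526 (both SD) in the 240 unmatched ones. No 2 of the 32 libraries held identical counts. The members, the gene lists, the markers and the tests were chosen with earlier results of these data known. The text names all 5 members, their features past the filter, the 3 genes most correlated with each member, and of each list the genes called and the 2 highest and the 2 lowest. As alternatives, the following were changed: test, scaling, filter, exons, the block, equal read numbers, the rounds, each neuron left out, neurons 15 and 16 left out together (added after the data were seen), and the minimum reads and neurons of the 3′ end test. The test of 3′ end shares was planned on the distal end and run on the leading end, because feature positions were not used here.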

Additional observations from a re-analysis of the deposited data

How the results depend on the processing

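The log2 fold change of Cpeb1 kept its direction in every alternative run, and its call in all but 5. The call was lost with dendrites rescaled to a median change of 0 (-3.79), without a filter (-5.24) and in the neurons of 3 rounds alone (-3.98), and also with neurons 15 and 16 left out together, which was added after the data were seen (-4.48, edgeR adjusted p = 0.0601). Leaving out each neuron in turn gave -5.51 to -4.52, called each time (edgeR adjusted p of 0.00991 to 0.0489). Without the block for neuron, which ignores the pairing, Cpeb1 stood at -1.98 (edgeR adjusted p = 0.386), Cpeb2 at -0.41, Cpeb3 reversed to 0.084, Cpeb4 at -0.29 and Pum2 at -0.70, and the table had 157 genes higher in dendrites and 77 in somas instead of 90 and 621. Rescaling reversed Cpeb2 (0.40), Cpeb3 (0.41) and Cpeb4 (0.31), none of them called in either fit, and turned the calls of the table to 548 and 92. In the neurons of 3 rounds alone Cpeb4 (1.23) and Pum2 (0.63) reversed, with no call. DESeq2 called Pum2 (-1.99, adjusted p = 0.00519). Leaving out each neuron in turn moved Cpeb2 between -1.34 and -0.50, Cpeb3 between -1.29 and -0.48, Cpeb4 between -1.50 and -0.60 and Pum2 between -2.10 and -1.24, with no call. Without both neurons 15 and 16 Cpeb2 stood at -0.41, Cpeb3 at -0.93, Cpeb4 at -0.44 and Pum2 at -1.07, also with no call. The cause of these changes was not tested, and the subsets also held fewer neurons.

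Among features, the leading end of Cpeb1 lost its call without a filter (-6.02) and without the block (-1.67), and was called without each neuron in turn (-6.48 to -5.41). The third end of Pum2 reversed without the block (0.29) and ranged from -0.52 to 0.16 as each neuron was left out, above 0 without neuron 3, 7, 13 or 16 (0.138, 0.0424, 0.0836 and 0.156) and without both neurons 15 and 16 (0.24). The second end of Pum2 was called without neuron 1, 2, 4 or 8 and the leading end of Cpeb4 without neuron 5. DESeq2 called the leading ends of Cpeb2 (-2.53), Cpeb3 (-2.17), Cpeb4 (-3.83) and Pum2 (-2.71) and the second end of Pum2 (-3.19). No alternative changed a call of the 3′ end shares, where none was called and the adjustment left little room for a call. At 10 reads Cpeb1 was detected in 2 dendrites instead of 8, and on exons Cpeb4 in 4 dendrites and 4 somas instead of 13 and 15.

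Counts of called genes moved by over 1.5 times with most settings. Higher in dendrites and in somas, they were 463 and 5029 with DESeq2, 81 and 1008 with its size factors in edgeR, 15 and 143 without a filter, 88 and 181 at 10 reads in 16 libraries, 98 and 257 on exons, 120 and 280 with equal read numbers, 41 and 306 in 2 rounds, 3 and 1 in 3 rounds and 68 and 101 without neurons 15 and 16, with 56 to 120 and 130 to 990 as each neuron was left out. Of features, 77 and 1805 were called, and 223 and 6415 with DESeq2, 60 and 3103 with its size factors, 10 and 173 without a filter, 87 and 134 without the block, 41 and 928 in 2 rounds, 77 and 305 without neurons 15 and 16, and 49 to 105 and 688 to 2539 as each neuron was left out. Cpeb4 on exons, the second Pum2 end in 2 rounds, and the 3′ end share of Cpeb4 at 20 reads or in 2 rounds fell below the minimum and gave no value. A Cpeb1 count under 10 reads in a dendrite does not tell a low level from a missed molecule.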
